A study of Mus musculus with 6 samples.

Results

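Intermediate filament genes of muscle, mesenchyme, nerve and the nuclear lamina were followed in C2C12 cells, an established mouse myoblast line, after siRNA knockdown of Meg3, a maternally expressed long non-coding RNA. The set held 10 genes: Des, Synm, Vim, Nes, Nefl, Nefm, Nefh, Ina, Prph and Lmna. They were found through the RefSeq accession that each non-control probe carries, and all 10 were on the array, with 15 probes on 33 spots among 39429 probes and 20659 named genes in all. The genes were chosen by name and function with their siRNA-MEG3 against siRNA-NC signals on these arrays known, so those signals are given as a description, and the calls named beside them support nothing further.

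The arrays were single-colour Agilent mouse gene expression arrays, 3 for cells given siRNA-MEG3 (labelled as lncRNA-MEG3 knockdown) and 3 for cells given the negative control siRNA-NC. C2C12 cells grew in DMEM containing 10% serum and received siRNA at 70 to 80% confluence, in an amount the labels print as "20 um" in a protocol text that mentions the Meg3 siRNA alone. The time between transfection and RNA extraction was not among the labels. C2C12 cells divide as myoblasts and can form myotubes, and bulk RNA does not tell fewer cells of a type apart from less RNA per cell. For 230 probes printed 10 times, deviations of spots from their probe mean were correlated between siRNA-MEG3 arrays 1 and 3 (r = 0.98, across spots), which sat at the same slide position in different scans. For every other pair of arrays r lay between -0.15 and 0.54. siRNA-MEG3 arrays 1 and 3 may thus be 2 scans of 1 hybridised array, which was not tested. The difference between siRNA-NC arrays 1 and 3 varied from probe to probe about as much as spot noise gives (variance ratio 1.02), whereas for siRNA-NC arrays 1 and 2 the ratio was 176.1. Arrays 1 and 3 of each group were therefore averaged into 1 sample, so that each group had 2 samples. The labels call the arrays biological replicates, but nothing names separate cultures and siRNA-MEG3 arrays 1 and 2 were also close (ratio 1.43), so errors and p-values reflect only how far these samples lie apart, which may be technical.

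Signals are printed as scaled signal, in which the 75th percentile of all probes of an array is 1000. Before scaling, that percentile was 2279 on siRNA-NC array 2 and from 1232 to 1334 on the other arrays. The lowest scaled signal that counted as well above background was also lowest on siRNA-NC array 2, at 7.76, against 12.2 and 11.7 on siRNA-NC arrays 1 and 3. On siRNA-MEG3 arrays 1 to 3 it was 16.7, 10.4 and 17.4, so a dim signal could count on some arrays and not on others. From 62.8 to 69.3% of spots on the siRNA-MEG3 arrays and from 70.1 to 75.2% on the siRNA-NC arrays were well above background, the scanner software's own mark, and no spot was saturated. The siRNA-MEG3 arrays came from other scans than the siRNA-NC arrays, so scan and group cannot be told apart. Dark patches took up 30.0%, 5.87% and 23.9% of siRNA-MEG3 arrays 1 to 3 and 0% of the siRNA-NC arrays. A patch is a 30 by 17 block where more than 5% of the spots are over 4-fold dimmer than with siRNA-NC. Each siRNA-NC array was compared with the rest of its own group. Genes lower with siRNA-MEG3 can thus add to a patch, and the shares of the 2 groups are not measured alike. Meg3 itself was too dim to check the knockdown: its 3 probes were all near background with siRNA-MEG3, and 1 of them stood well above it on 1 siRNA-NC array. Of the myoblast markers, Myod1, Myf5, Cdh15 and Itga7 were well above background on all 6 arrays.

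Intermediate filaments are rope-like polymers of coiled-coil proteins that give cells mechanical strength. Desmin (Des) links the Z-discs of neighbouring myofibrils in muscle, with synemin (Synm) as a partner, while vimentin (Vim) and nestin (Nes) are filaments of mesenchymal cells, progenitors and dividing myoblasts. The neurofilament light, medium and heavy chains (Nefl, Nefm, Nefh), alpha-internexin (Ina) and peripherin (Prph) are best known from neurons, and lamin A/C (Lmna) lines the inside of the nuclear envelope and is mutated in forms of muscular dystrophy.

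All 10 genes passed the filter on dim probes, which asks that 1 group or the other have the probe well above background throughout its arrays. Only 6 were well above background on all 6 arrays (Des, Synm, Vim, Nes, Ina and Lmna). Nefl and Nefm passed through siRNA-MEG3 alone and Nefh and Prph through siRNA-NC alone, so for these 4 a large difference is tied to having passed. In the limma fit over all 22054 genes and unnamed accessions with a kept probe, 2 of the 10 genes were called higher with siRNA-MEG3 (Nefl and Nefm; 0.952% of all entries were called higher) and 1 was called lower (Nefh; 0.422% of all entries). The other 7 were not called. The median log2 fold change was -0.09 over the 10 genes and -0.02 over all entries.

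**Figure D1:**
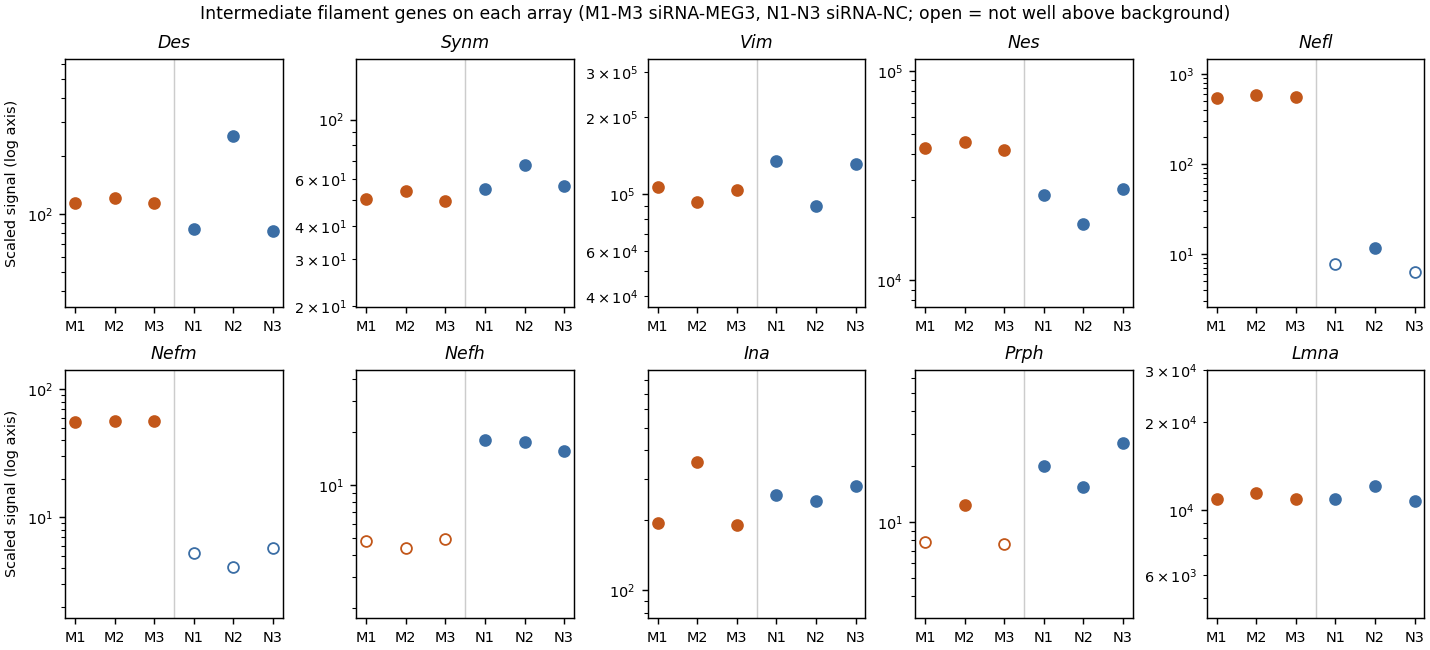
Scaled signal of the probe that stands for each gene, on a log axis, on siRNA-MEG3 arrays 1 to 3 (M1 to M3, orange) and siRNA-NC arrays 1 to 3 (N1 to N3, blue); each point is 1 array, and open points were not well above background. Nefl and Nefm lie far above their siRNA-NC points, Nefh and Prph lie below theirs, and for Des siRNA-NC array 2 stands above every other array.

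Des, Vim and Prph belong to 1 structural class, the type III filaments, and can be set beside each other at their start sites. Their promoters, from 250 bases before to 50 after the annotated start in RefSeq (build GRCm38.p6, all 3 on the plus strand), are shown because Des had the widest gap between the controls of the 10 genes and Vim and Prph share its class; capitals mark the E-box CANNTG, the motif that MyoD family factors bind, and the TATA box TATAAA. They are Des (chr1:75360042-75360341), Vim (chr2:13574061-13574360) and Prph (chr15:99054924-99055223).
Des: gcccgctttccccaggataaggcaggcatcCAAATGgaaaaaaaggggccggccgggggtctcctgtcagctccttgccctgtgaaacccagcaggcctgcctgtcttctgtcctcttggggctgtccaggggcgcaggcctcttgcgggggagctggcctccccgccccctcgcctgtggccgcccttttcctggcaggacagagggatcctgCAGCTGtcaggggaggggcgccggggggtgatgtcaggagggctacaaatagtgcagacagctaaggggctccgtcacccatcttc
Vim: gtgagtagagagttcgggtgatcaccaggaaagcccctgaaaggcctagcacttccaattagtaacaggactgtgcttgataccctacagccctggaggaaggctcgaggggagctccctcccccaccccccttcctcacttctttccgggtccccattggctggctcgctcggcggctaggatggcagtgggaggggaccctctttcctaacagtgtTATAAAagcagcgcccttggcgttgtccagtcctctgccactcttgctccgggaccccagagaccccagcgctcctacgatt
Prph: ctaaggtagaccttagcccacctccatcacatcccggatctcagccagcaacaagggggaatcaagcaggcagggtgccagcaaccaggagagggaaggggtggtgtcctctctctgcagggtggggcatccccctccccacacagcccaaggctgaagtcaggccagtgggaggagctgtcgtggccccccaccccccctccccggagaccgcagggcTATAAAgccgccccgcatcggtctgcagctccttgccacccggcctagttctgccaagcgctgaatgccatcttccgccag
The Des window held 2 E-boxes and no TATA box, and the Vim and Prph windows each held 1 TATA box, starting at -32 and -31 from the start site, and no E-box. Promoters were in the table for 7 of the 10 genes (8 windows, 2 of them for Lmna), and 3 of these 8 held an E-box (Des, Synm and Ina), against 72.3% of 32841 promoters of the same length. TATAAA was in 2 of the 8 windows, against 13.6% of all promoters, counting both strands. The CArG box and the MEF2 site were in none of the 8 windows and in 1.63% and 3.19% of all promoters. A match describes the letters of the window and says nothing about a factor there.

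Desmin did not separate the groups. Des had scaled signals of 114, 122 and 114 on siRNA-MEG3 arrays 1 to 3, against 83.7, 255 and 81.9 on siRNA-NC arrays 1 to 3. The siRNA-MEG3 arrays thus lay between the 2 siRNA-NC samples, and the log2 fold change was -0.30 ± 0.59 (SE, n = 2 samples per group). The gap between the controls was itself wide: siRNA-NC array 2 read 3.08-fold above the mean of arrays 1 and 3, a gap that only 1.53% of all entries matched or exceeded. Without siRNA-NC array 2 the direction turned, to 0.51.

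The Des probe was printed 10 times on each array, and the gap was present in all of them. Its 10 spots ranged from 118.5 to 128.6 on siRNA-MEG3 array 2 and from 81.7 to 133.8 on siRNA-MEG3 array 1, against 237.8 to 266.1 on siRNA-NC array 2 and 77.0 to 92.6 on siRNA-NC array 1. siRNA-MEG3 array 3 reached 138.3 at most, so no spot of another array came up to those of siRNA-NC array 2. The spread between spots was larger on siRNA-MEG3 arrays 1 and 3, with coefficients of variation of 13.8% and 15.4%, than on siRNA-MEG3 array 2, with 2.64%, or on the siRNA-NC arrays, with 3.09 to 5.66%. Of the 10 spots, 2 lay in dark patches on each of siRNA-MEG3 arrays 1 and 3, and 1 on siRNA-MEG3 array 2. On array 1 these were its lowest and its highest spot (81.7 and 133.8). On array 3 they read 114.7 and 134.5, and its lowest spot (86.7) lay outside a patch. The part of the patches in that spread was not tested.

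**Figure D2:**
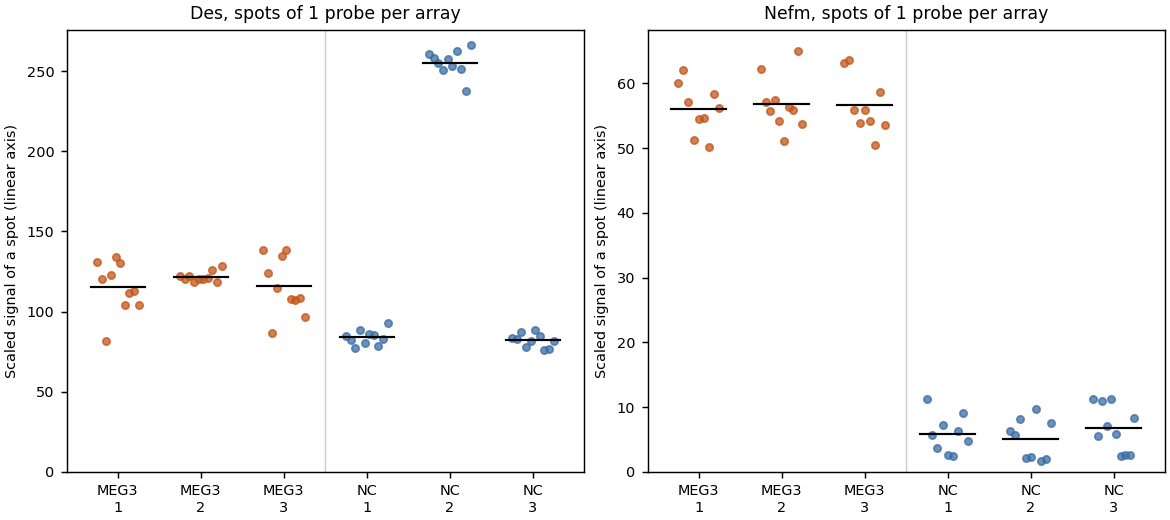
Scaled signal of every clean spot of the Des probe (left) and the Nefm probe (right) on a linear axis, by array, with siRNA-MEG3 in orange and siRNA-NC in blue; black bars are array means. The Des spots of siRNA-NC array 2 (mean 255) stand apart from those of all other arrays, while the Nefm spots of siRNA-MEG3 (means from 56.0 to 56.9) stand above all Nefm spots of siRNA-NC (means from 5.04 to 6.78).

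Synemin, the partner of desmin and vimentin, differed little. On its brightest probe Synm had 50.5, 54.1 and 49.5 on the siRNA-MEG3 arrays, against 55.0, 67.4 and 56.6 on the siRNA-NC arrays. Every siRNA-MEG3 array was below every siRNA-NC array, which held for 21.7% of all entries. The margin was narrow and the log2 fold change was -0.24 ± 0.22. Another probe gave -0.26 ± 0.23 and a dimmer one -0.86 ± 0.33, with siRNA-MEG3 array 2 the only one of its group well above background. The remaining 2 of the 5 Synm probes were not kept; 1 of them, with another transcript accession, was well above background on no array.

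Vimentin was bright in every sample and overlapped between the groups. Vim had 106666, 93515 and 104494 on the siRNA-MEG3 arrays, against 135371, 90470 and 132148 on the siRNA-NC arrays. The lowest array of all was siRNA-NC array 2, and the log2 fold change was -0.15 ± 0.28.

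Nestin stood higher with siRNA-MEG3. Nes had 42718, 45494 and 42062 on the siRNA-MEG3 arrays, against 25602, 18536 and 27373 on the siRNA-NC arrays. Every siRNA-MEG3 array was above every siRNA-NC array, as was so for 25.2% of all entries. The log2 fold change was 0.99 ± 0.27, a 1.98-fold difference, and it was not called over the whole array. It kept its direction under all 20 alternatives, between 0.66 and 1.26, and was called under 1 of the 19 with a test, the fit with 6 arrays as 6 samples.

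The light and medium neurofilament chains were the members with the widest differences. Nefl, the chain on which neurofilaments assemble, had 538, 587 and 552 on the siRNA-MEG3 arrays, against 7.67, 11.6 and 6.40 on the siRNA-NC arrays. Of the 3 siRNA-NC arrays, array 2 alone had it well above background. The log2 fold change was 5.97 ± 0.32, and its size is uncertain because 2 of the 3 siRNA-NC arrays were not well above background. With normexp background correction, which adds an offset of 50 and so shrinks differences of dim signals, and with the spots under a bright speck on siRNA-MEG3 array 2 left out, it was 3.58 and called; with normexp on all spots it was 3.80 and not called. Nefl was called under 16 of 19 alternatives with a test, and not with dim probes kept or without siRNA-NC array 2.

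Nefm, the medium chain, moved the same way. It had 55.9, 56.7 and 56.5 on the siRNA-MEG3 arrays, against 5.23, 4.11 and 5.79 on the siRNA-NC arrays, where it was not well above background on any array. Nefm was at least 5.86-fold higher with siRNA-MEG3, taking for each siRNA-NC array the lowest signal that counted as well above background there; the fitted log2 value was 3.57 ± 0.24. Over its clean spots, 9, 10 and 9 of 9, 10 and 9 were well above background on siRNA-MEG3 arrays 1 to 3, against 0, 2 and 0 of 9, 9 and 10 on siRNA-NC arrays 1 to 3. With normexp and the speck spots left out the log2 value was 1.32 and the gene was not called; it was called under 15 of 19 alternatives. In the annotation Nefl and Nefm are close neighbours on 1 chromosome, with 1 annotated gene between them.

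The heavy chain went the other way, at signals near the limit of detection. The kept Nefh probe had 4.80, 4.40 and 4.93 on the siRNA-MEG3 arrays, none well above background, against 18.1, 17.5 and 15.6 on the siRNA-NC arrays, all well above background. Nefh was at least 1.29-fold lower with siRNA-MEG3 by the same kind of bound, and the fitted log2 value was -1.89 ± 0.20. The lowest signals that counted on siRNA-MEG3 arrays 1 and 3 (16.7 and 17.4) were close to the siRNA-NC signals of Nefh. The bound thus rests mostly on siRNA-MEG3 array 2, where that signal was 10.4. That size changed with the background correction: with normexp and the speck spots left out it was -0.12 and not called. With normexp on all spots it turned to 1.64, but there the median of all entries also moved to 0.50. No call was made for Nefh in that setting, where 0 entries of the whole array were called. Nefh was called under 11 of 19 alternatives, and not with quantile normalization, the authors' deposited log2 values or dim probes kept either. The other Nefh probe was well above background on no array, at 9.13, 12.1 and 6.98 with siRNA-MEG3 against 2.92, 1.76 and 3.76 with siRNA-NC. Below background on every array, it gives no fold.

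Peripherin was dim as well. Prph had 7.85, 12.4 and 7.57 on the siRNA-MEG3 arrays, of which array 2 alone was well above background, against 20.2, 15.5 and 26.7 on the siRNA-NC arrays. Every siRNA-MEG3 array was below every siRNA-NC array, as was so for 21.7% of all entries. The log2 fold change was -0.95 ± 0.37, not called, and with normexp its direction turned. It was 0.14 with the speck spots left out and 1.69 with all spots, where the median of all entries was 0.50.

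Alpha-internexin split the siRNA-MEG3 arrays and not the groups. Ina had 194, 356 and 190 on the siRNA-MEG3 arrays, against 257, 241 and 281 on the siRNA-NC arrays. siRNA-MEG3 array 2 was thus the highest array and siRNA-MEG3 arrays 1 and 3 the lowest, 1.85-fold apart, and the log2 fold change was 0.04 ± 0.37. Without siRNA-MEG3 array 2 it was -0.41. The Ina spot lay inside a dark patch on siRNA-MEG3 array 1 and outside one on arrays 2 and 3, of which array 3 read as low as array 1. With dark patch spots left out the log2 fold change was 0.03. What set arrays 1 and 3 below array 2 was not tested.

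Lamin A/C was level. Lmna had 10897, 11412 and 10889 on the siRNA-MEG3 arrays, against 10924, 12062 and 10707 on the siRNA-NC arrays, so the groups overlapped. The log2 fold change was -0.03 ± 0.20. It had 1 probe, printed in 1 spot per array.

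**Figure D3:**
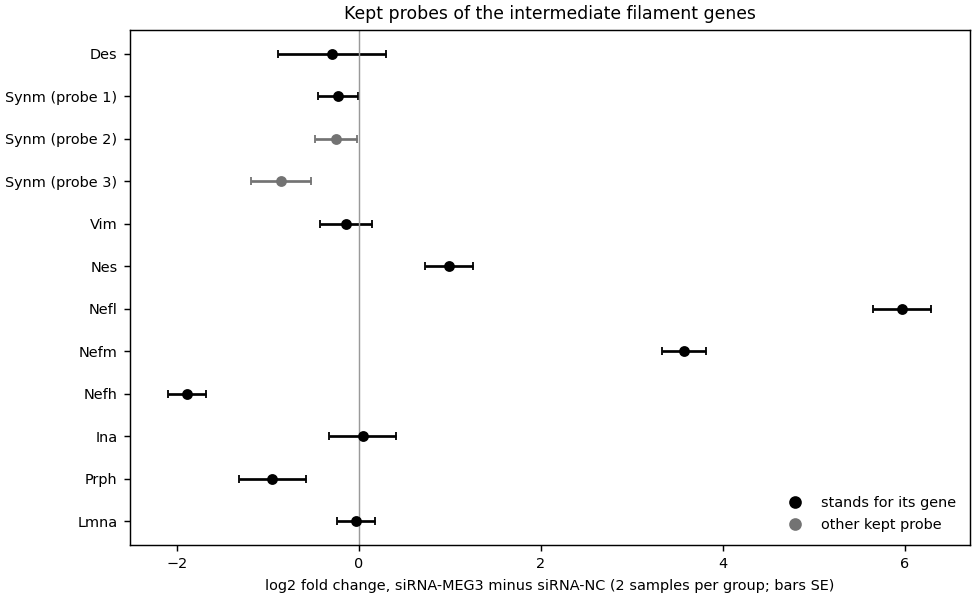
Log2 fold change (siRNA-MEG3 minus siRNA-NC, 2 samples per group) of the 12 kept probes, with bars of 1 SE; black points stand for their gene and grey points are its other kept probes. Nefl (5.97) and Nefm (3.57) lie far to the right and Nefh (-1.89) to the left, while Des, Synm, Vim, Ina and Lmna lie near 0.

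The gap between siRNA-NC array 2 and siRNA-NC arrays 1 and 3 is a difference among controls alone and was set beside the difference between the groups. In 5 of the 10 genes (Des, Synm, Vim, Ina and Lmna) that gap was larger than the difference between the groups, against 50.1% of all entries, so the share was near that of the whole array. Of the 10 genes Des alone had a gap of over 1 on the log2 scale, against 6.69% of all entries. Among 38 related genes that could be tested, 4 had such a gap. Sync, which encodes syncoilin, a muscle filament protein that binds desmin, read 5.95-fold higher on siRNA-NC array 2 than on arrays 1 and 3. The cytolinker gene Dst read 4.22-fold higher there, and Fntb, a subunit of the enzyme that farnesylates lamins, 4.10-fold higher. The keratin gene Krt7 went the other way (log2 gap -1.05). Dst, Fntb and Krt7 were named after their values were seen.

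**Figure D4:**
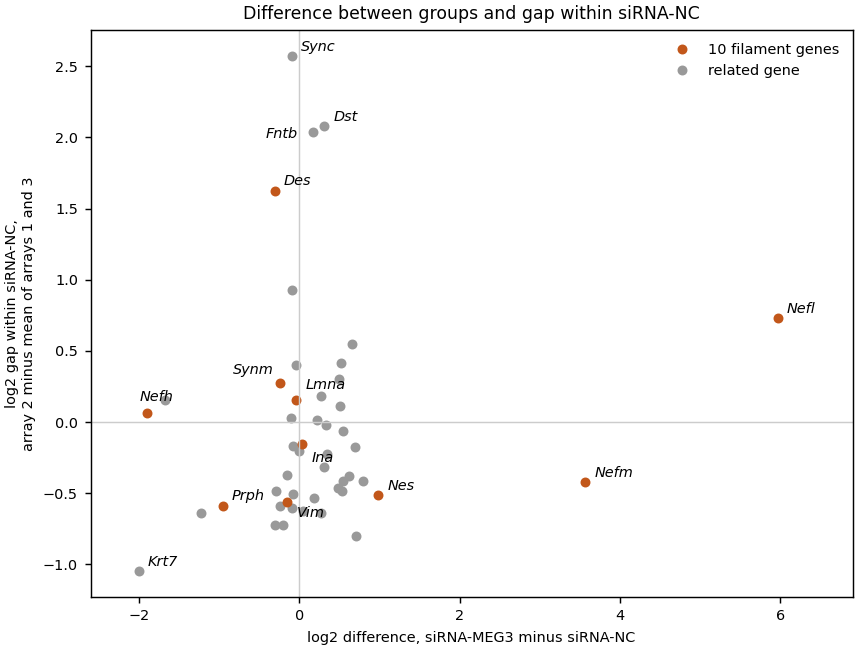
For the 10 intermediate filament genes (orange) and the 38 related genes tested (grey), the log2 difference siRNA-MEG3 minus siRNA-NC (horizontal axis) and the log2 gap within siRNA-NC, array 2 minus the mean of arrays 1 and 3 (vertical axis). Sync (2.57), Dst (2.08), Fntb (2.04) and Des (1.62) have the widest upward gaps within siRNA-NC and small differences between the groups. Nefl and Nefm have the widest differences between the groups, with gaps of 0.73 and -0.42. Most of their siRNA-NC arrays were not well above background.

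Sync followed the pattern of Des across the arrays. It had 89.0, 87.8 and 88.2 on the siRNA-MEG3 arrays, against 38.0, 230 and 39.3 on the siRNA-NC arrays. The siRNA-MEG3 values again lay between the 2 siRNA-NC samples, and the log2 fold change was -0.09 ± 0.91 (limma adjusted p = 0.973). Without siRNA-NC array 2 it was 1.19.

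Other genes of the intermediate filament system did not pass the test. The list held 44 genes for other filament proteins, linkers and chaperones, filament turnover and the nuclear lamina, of which 38 could be tested. By limma 0 rose and 0 fell (1.37% of all entries were called in either direction), while 3 stood higher and 3 lower at an unadjusted p under 0.05, or 15.8% of the list against 18.6% of all entries. The list median was 0.21 on the log2 scale, against -0.02 over all entries. Lmnb1, the B-type lamin gene, was higher on every siRNA-MEG3 array than on any siRNA-NC array, as was so for 25.2% of all entries. It had 574, 608 and 578 on the siRNA-MEG3 arrays, against 401, 434 and 401 on the siRNA-NC arrays (log2 fold change 0.51 ± 0.20, limma adjusted p = 0.296). Its paralog Lmnb2 stood at -0.00 ± 0.21 and the plectin gene Plec, whose product ties filaments to other structures, at -0.15 ± 0.24. Syne1, which encodes a nesprin that links the nucleus to the cytoskeleton, stood at 0.27 ± 0.24 (limma adjusted p of 0.998, 0.790 and 0.615 in that order).

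Because neurofilament genes also mark neurons, a list of neuronal markers was read beside Nefl and Nefm. Of its 10 genes 7 could be tested. Syt1 and Elavl3 were too dim, and Stmn2 was untested because its only spot carried an outlier mark on siRNA-MEG3 array 2; with marked spots kept it had 2414, 2535 and 2386 on the siRNA-MEG3 arrays, against 3516, 1984 and 3657 on the siRNA-NC arrays, which overlapped. Of those 7, Map2 rose by 3.35 ± 0.22 and Tubb3 by 1.89 ± 0.21 on the log2 scale (limma adjusted p = 0.0246 and 0.0494), 0 fell, and 5 were not called, where 0.952% of all entries were called higher. Map2 was called under 16 of 19 alternatives with a test and Tubb3 under 9 of 19. Snap25, a synaptic fusion protein gene, stood at -1.73 ± 0.25 (limma adjusted p = 0.0755). The summed scaled signal of the 7 genes tested was 4458 to 4741 on the siRNA-MEG3 arrays and 4521 to 4574 on the siRNA-NC arrays. Of 9 markers of myoblasts and myotubes tested, 3 rose (Myog, Myh3 and Tnnt3, limma adjusted p from 0.0206 to 0.0292, each called under 16 of 19 alternatives), 0 fell and 6 were not called. Among those 6, the myoblast factor gene Myf5 had 32.0, 32.3 and 32.4 on the siRNA-MEG3 arrays, against 354.7, 172.7 and 359.8 on the siRNA-NC arrays (log2 fold change -2.95 ± 0.41, limma adjusted p = 0.0703). Myf5 alone of the 9 had a negative log2 fold change. The rest of those 6 stood higher: Myod1 at 2.21 ± 0.43, Ckm at 1.70 ± 0.24, Cdh15 at 1.33 ± 0.23, Itga7 at 0.74 ± 0.20 and Acta1 at 0.64 ± 0.21. Their limma adjusted p ran from 0.0702 to 0.224. The summed signal of the 9 genes was 46290 to 46770 with siRNA-MEG3 and 19090 to 20450 with siRNA-NC. Of 5 glial, 5 fibroblast and 2 endothelial markers tested 0 rose and 0 fell by limma. Their summed signals were 402.0 to 423.2, 238200 to 255700 and 868 to 1231 with siRNA-MEG3, and 226.2 to 348.2, 172500 to 269200 and 860.6 to 935.2 with siRNA-NC. The part of other cell types in the neurofilament values was not tested.

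**Figure D5:**
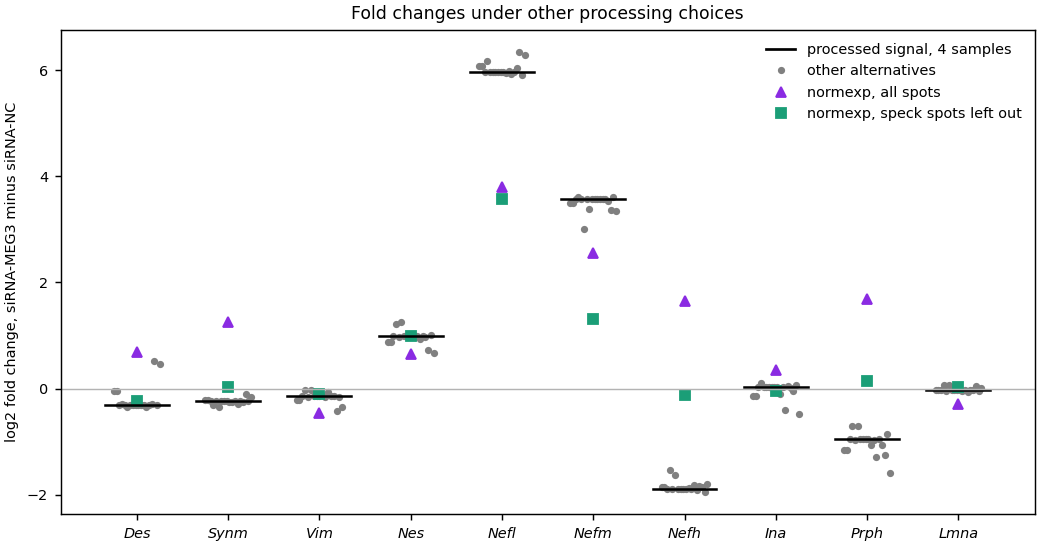
Log2 fold change (siRNA-MEG3 minus siRNA-NC) of each gene under the processing described (black line), with normexp on all spots (purple triangles), with normexp and the speck spots left out (green squares) and under the other alternatives (grey points). Nefl, Nefm and Nes stay above 0 and Vim below 0 under every alternative that gave them a value, Nefh is above 0 with normexp on all spots alone, Prph is above 0 with both normexp settings, and Des, Synm, Ina and Lmna cross 0. With normexp on all spots the median of all entries was 0.50.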

How the data were processed

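Expression was measured on 6 arrays. The scanner files the authors deposited hold spot intensities, among them the processed signal of Agilent Feature Extraction 11.0.1.1, per the file headers. The deposited series table holds the authors' log2 values, whose columns share 1 upper quartile and maximum; per the labels, a normalization factor came from mRNAs reaching intensity 30 in each sample.

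Neither control spots nor outlier-marked spots were used, log2 processed signals were averaged per probe, and each array was set to its 75th percentile over all 39429 probes (outlier spots included for the percentile). Probes were named through RefSeq accessions of GRCm38.p6 (27234 of 39429); the array was designed on an older assembly. A probe printed 10 times counted as well above background where most of its clean spots did. A gene was represented by its brightest kept probe. limma 3.58.1 (R 4.3.3; lmFit, eBayes, 2-sided, group as the only term, 2 residual degrees of freedom) was fitted over 22054 entries with Benjamini-Hochberg adjustment and a threshold of 0.05, and was tested on simulated data. Bounds use the lowest signal well above background on each array. Normexp (offset 50) used the median signal, since the files hold no mean signal. All 10 genes and the related and marker lists, with 6 related genes set for naming, were chosen with earlier results of these data known; 1 of those 6 is not reported here. Same-numbered arrays did not deviate together (r from -0.04 to -0.03), so the numbers were not taken as pairs.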

Additional observations from a re-analysis of the deposited data

How the results depend on the processing

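Limits come first from the samples: 2 per group, with siRNA-MEG3 samples that may be technical replicates, and from signal over background, which limits Nefl, Nefm, Nefh and Prph. In the fit described, 2 of the 10 genes were called higher and 1 lower, and 0 related genes were called in either direction. Counting 6 arrays as 6 samples gave 3 members higher and 2 lower, and 9 related genes higher and 3 lower. Of all 22174 entries in that fit, 3116 were higher and 2603 lower. With the replicate block added 3 related genes were lower, and over the whole array 1421 entries were higher and 1246 lower. Near-identical arrays shrink the spread in both fits by construction. With the replicate block on 4 samples 0 members were lower, 124 entries of the whole array were higher and 26 lower, Tubb3 was not called (limma adjusted p = 0.0970), and no other call of a gene named in the report changed. The authors' deposited log2 values and quantile normalization each gave 0 members lower. With dim probes kept the counts were 0 and 0, and 0 entries of the whole array passed. Normexp on all spots also gave 0 and 0, with Nefh turned to 1.64 and the median of all entries moved to 0.50, and normexp without the 18 speck spots gave 1 and 0. The siRNA-MEG3 arrays as 1 sample, an alternative chosen after seeing the data, gave 2 related genes lower. Leaving out each array gave 0 to 2 members higher, 0 to 1 lower, and 0 to 2 related genes higher and 0 to 2 lower. Without siRNA-NC array 2 a lone siRNA-NC sample is left, assumed to vary like the other group. Nefl, Nefm and Nefh lost their calls there, at log2 values of 6.34, 3.36 and -1.86. So did every other called gene named in the report, so the loss was not particular to the members. Without siRNA-NC array 1 Nefh did not pass. Without siRNA-MEG3 array 2 a lone siRNA-MEG3 sample is left. Over the whole array the counts ran from 0 to 3116 higher and 0 to 2603 lower, against 210 and 93. The cause of the other changes was not tested. Slide could not be fitted as a block, since no scan held both groups. With dark patch spots left out Vim had no value in 1 sample and was not tested.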
